A study of Mus musculus with 54 samples.

Results

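The Gadd45 family comprises Gadd45a, Gadd45b and Gadd45g, and its expression is described here in mouse Ba/F3-gp130 cells across 9 groups defined by cell line and stimulation. The members were chosen by name, and each was represented by the probe set annotated with exactly 1 gene symbol. Where a gene had several such probe sets, the one with the highest mean over the 27 arrays was to be used, but each member had 1. The 3 members are 3 of 19938 genes measured in this way. The family was proposed with the rise of Gadd45g and Gadd45b after Hyper-IL-6 already known, so the members' values in Hyper-IL-6 comparisons are given as a description, without a test.

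Gadd45 proteins are small acidic proteins of the nucleus and cytoplasm that have no known enzymatic activity and act by binding partners. They bind the MAP kinase kinase kinase MTK1, encoded by Map3k4, and so feed the p38 and JNK stress cascades, and they bind the replication clamp PCNA, the cell cycle inhibitor p21 and the mitotic kinase CDK1. Gadd45a is a classical target of p53 after DNA damage. Gadd45b was described as a gene induced early during myeloid differentiation, among others by interleukin-6, and Gadd45g as an early response gene of cytokine signalling, also known as a cytokine response gene of interleukin-2.

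Ba/F3 cells are a pro-B line of the mouse. Their gp130 form carries the signalling chain that receptors of the interleukin-6 family share and is labelled as dependent on Hyper-IL-6, which joins interleukin-6 and the soluble form of its receptor in 1 molecule. The study asked whether Cargo Internalization Receptor (CIR) constructs, which take up cargo from outside the cell, act on the cell without side effects on expression. The untransfected (parental) line was compared with 3 lines transfected with CIR-1, CIR-2 or CIR-3, each unstimulated or incubated for 1 h with 50 µl of GFP-PFC (an emulsion) per ml. A further group of parental cells received 100 ng/ml Hyper-IL-6 for 1 h as the positive stimulation control. All cells had been cultured with 10 ng/ml Hyper-IL-6, then washed in PBS and kept for 3 h in serum-free medium, so the unstimulated groups are cells recently deprived of the cytokine. Each group held 3 arrays. The labels do not say whether these came from separate cultures, whether a CIR line is 1 clone, or what an addition of medium without emulsion would do; p-values therefore measure only the spread between these arrays, which may be technical. Arrays are named by their number in the labels, 1, 3 and 5 for unstimulated cells and 2, 4 and 6 for stimulated cells.

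Expression is given as log2 signal, so a difference of 1 stands for 2-fold, a reading of the deposited values that rests on their range. Array medians lay between 7.52 and 7.65, and arrays of a group correlated at 0.992 to 0.999 across genes. Socs3, a feedback inhibitor induced through gp130, was at 9.78 ± 0.26 (SD, n = 3) in unstimulated parental cells and at 12.84 ± 0.26 (SD, n = 3) after Hyper-IL-6, which checks that label. Of the pro-B markers, 7 of 11 lay above the lower quartile of the arrays (Pax5, Cd79a, Cd79b, Vpreb1, Vpreb2, Igll1 and Rag1). Rag1, at 6.29, was close to that quartile, which lay between 6.22 and 6.31. The B-lineage factor Ebf1 was below it, as were Rag2, Dntt and Il7r. Markers of other blood lineages were also above it: 6 of 7 of mast cells and basophils, 4 of 5 of erythroid cells and megakaryocytes, 6 of 8 of neutrophils and macrophages, 5 of 6 of T cells, and 3 of 3 interleukin-3 receptor chains. Most probe sets lie above a lower quartile by definition, so these counts do not show that a lineage is expressed. In such bulk RNA, fewer cells of a type and less RNA per cell cannot be told apart.

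The promoters of the members are shown because Gadd45b and Gadd45g were high together after Hyper-IL-6 whereas Gadd45a was not. The 250 bases before each start are given 5′ to 3′ on the gene's strand, from RefSeq on build GRCm38.p6, and all 3 members were found there. Capitals mark matches to the E-box CACGTG, the octamer ATTTGCAT, the CCAAT box and the TATA element TATAAA, on either strand. Gadd45a lies on the minus strand at chr6:67037408-67037657, Gadd45b on the plus strand at chr10:80929841-80930090, and Gadd45g on the plus strand at chr13:51846425-51846674.
Gadd45a: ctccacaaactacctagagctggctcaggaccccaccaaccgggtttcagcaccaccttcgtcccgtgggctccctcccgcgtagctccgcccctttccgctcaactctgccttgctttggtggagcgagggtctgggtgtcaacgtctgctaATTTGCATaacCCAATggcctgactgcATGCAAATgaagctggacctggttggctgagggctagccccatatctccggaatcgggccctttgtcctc
Gadd45b: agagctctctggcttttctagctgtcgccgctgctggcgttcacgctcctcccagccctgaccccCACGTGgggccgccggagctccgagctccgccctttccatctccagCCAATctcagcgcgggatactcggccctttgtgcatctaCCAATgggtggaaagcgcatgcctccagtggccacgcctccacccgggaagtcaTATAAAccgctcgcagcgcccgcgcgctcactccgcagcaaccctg
Gadd45g: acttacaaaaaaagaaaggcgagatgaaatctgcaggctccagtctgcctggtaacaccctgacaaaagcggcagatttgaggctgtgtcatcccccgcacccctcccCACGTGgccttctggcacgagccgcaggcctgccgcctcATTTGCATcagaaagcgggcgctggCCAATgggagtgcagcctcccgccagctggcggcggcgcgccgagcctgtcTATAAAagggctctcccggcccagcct

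The windows of Gadd45b and Gadd45g each held 1 E-box, beginning 185 and 142 bases before the start, and 1 TATAAA, beginning 46 and 27 bases before it. Gadd45a held neither. Over 32851 promoter windows of the same length, 6.02% held CACGTG and 12.4% held TATAAA. The octamer occurred in 2 copies in Gadd45a, in opposite orientations 97 and 70 bases before the start, in 1 copy in Gadd45g and not in Gadd45b, against 1.6% of windows. CCAAT was present in all 3 members, with 2 copies in Gadd45b, and in 33.8% of windows. The GC box GGGCGG matched once each in Gadd45a and Gadd45b and not in Gadd45g, against 32.7% of windows. The longest stretch common to Gadd45b and Gadd45g was CCCCACGTGG, around the E-box, present in 36 windows (0.11%), but Gadd45a and Gadd45b also shared 10 bases, GGCCCTTTGT, present in 33 windows (0.1%). No window of a member matched the STAT letters TTCNNNGAA (7.02% of windows), the AP-1 letters TGANTCA (6.75%), the CRE TGACGTCA (1.55%) or the forkhead letters TGTTTAC (3.17%), nor the degenerate NF-kB (7.25%) and SRF CArG (1.47%) motifs. A match describes letters only, and a missing match says nothing of a factor outside or inside this window. The motifs were chosen after the sequences were seen, so the shares of windows do not measure how unusual a match is. A link between these letters and the Hyper-IL-6 differences was not tested.

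Gadd45g, the member with the widest range, stood lowest in parental cells. Its signal was 8.94, 9.01 and 9.04 on unstimulated parental arrays 1, 3 and 5, and 8.91, 9.03 and 9.22 on GFP-PFC arrays 2, 4 and 6. After Hyper-IL-6 it was 11.68, 12.30 and 12.36 on arrays 2, 4 and 6. Every Hyper-IL-6 array was far above every other array of the study, and the lowest of the 3 was array 2.

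In the CIR-1 line, Gadd45g was 9.77, 9.57 and 9.63 without stimulation and 9.90, 9.72 and 9.97 with GFP-PFC. In the CIR-2 line it was 9.23, 9.25 and 9.22 without stimulation and 9.26, 9.37 and 9.10 with GFP-PFC. In the CIR-3 line it was 9.39, 9.40 and 9.69 without stimulation and 9.50, 9.39 and 9.89 with GFP-PFC. All CIR-1 and CIR-3 arrays thus lay above all parental arrays of the same condition. CIR-2 did so without stimulation, but its GFP-PFC array 6 lay below parental GFP-PFC array 6.

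Ordered by group mean, Gadd45g ran from Hyper-IL-6 through CIR-1 GFP-PFC, CIR-1 unstimulated, CIR-3 GFP-PFC, CIR-3 unstimulated, CIR-2 GFP-PFC, CIR-2 unstimulated and parental GFP-PFC to parental unstimulated. Neighbours in this order did not overlap at 3 places. The gap was 2.25 between Hyper-IL-6 and CIR-1 GFP-PFC, 0.26 between CIR-3 unstimulated and CIR-2 GFP-PFC, and 0.18 between CIR-2 unstimulated and parental GFP-PFC. The arrays of all other neighbours overlapped. Apart from Hyper-IL-6, the 2 conditions of a line were adjacent in this order for every line.

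Gadd45b was near the same level in every group but 1. It was 9.95, 10.00 and 10.14 in unstimulated parental cells, 9.97, 10.14 and 10.28 with GFP-PFC, and 10.93, 11.32 and 11.25 with Hyper-IL-6. All 3 Hyper-IL-6 arrays lay above all other arrays. In CIR-1 it was 9.90, 10.18 and 10.06 without stimulation and 9.90, 10.06 and 10.22 with GFP-PFC. In CIR-2 it was 10.04, 10.32 and 10.22 without stimulation and 10.18, 10.30 and 10.21 with GFP-PFC, and in CIR-3 it was 9.93, 10.22 and 10.30 without stimulation and 10.01, 10.08 and 10.36 with GFP-PFC. Below the Hyper-IL-6 group, which stood 0.94 above the next group mean, every pair of neighbours in the order overlapped, and those 8 group means spanned 0.20.

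Gadd45a spanned 0.56 between its group means, less than Gadd45b with the Hyper-IL-6 group and more than Gadd45b without it. In parental cells it was 11.37, 11.19 and 10.84 without stimulation, 10.92, 10.82 and 10.78 with GFP-PFC and 11.02, 10.89 and 10.88 with Hyper-IL-6. Unstimulated parental array 5 lay as low as the stimulated arrays, which gave this group the largest SD of Gadd45a (0.27). In CIR-1 it was 11.30, 11.09 and 11.17 without stimulation and 11.11, 10.87 and 11.14 with GFP-PFC. In CIR-2 it was 11.35, 11.22 and 11.36 without stimulation and 11.17, 11.09 and 11.33 with GFP-PFC, and in CIR-3 it was 11.55, 11.36 and 11.28 without stimulation and 11.12, 10.97 and 11.18 with GFP-PFC. The order ran from CIR-3 unstimulated at 11.40 ± 0.14 (SD, n = 3) to parental GFP-PFC at 10.84 ± 0.071 (SD, n = 3), and all neighbours overlapped. Within each line the unstimulated mean was above the GFP-PFC mean.

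**Figure D1:**
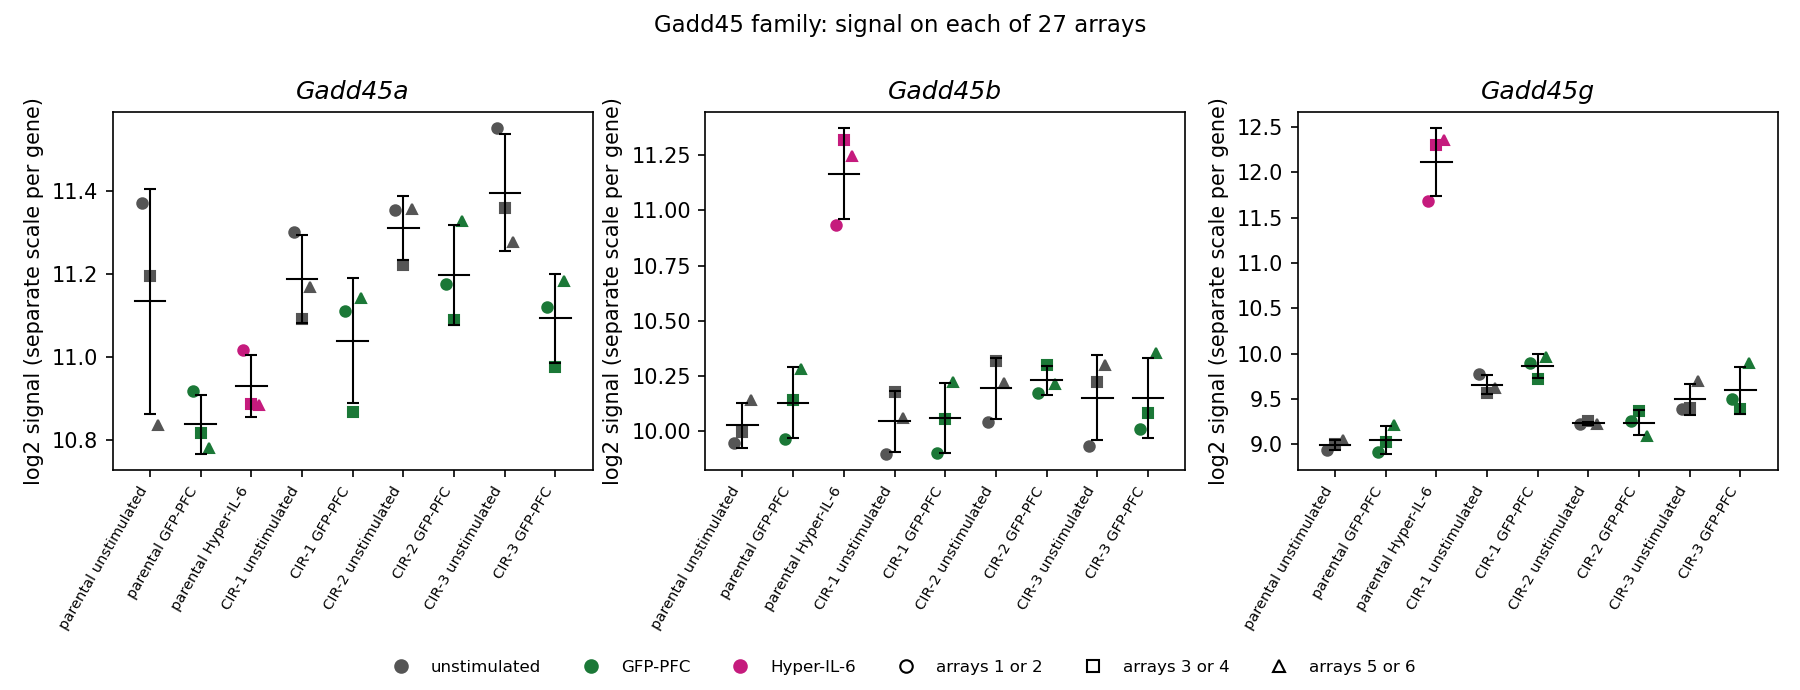
Log2 signal of Gadd45a, Gadd45b and Gadd45g on each of the 27 arrays (points; shape gives the array number, colour the stimulation), with the group mean and SD of 3 arrays (bars) and a separate vertical scale for each gene. The 3 Hyper-IL-6 arrays stand above all others for Gadd45b and Gadd45g and not for Gadd45a, and the Gadd45g arrays of CIR-1 and CIR-3 lie above the parental arrays of the same condition, a difference that passed the test in CIR-1 only.

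Hyper-IL-6 in parental cells asked for the response to the cytokine on which these cells depend. Gadd45g was higher by 3.12 (SE 0.14, 95% interval 2.83 to 3.41), which is 8.67-fold. Gadd45b was higher by 1.14 (SE 0.12, 95% interval 0.89 to 1.39), which is 2.20-fold. Gadd45a was at -0.20 (SE 0.11, 95% interval -0.43 to 0.018). By size of difference Gadd45g ranked 3rd and Gadd45b 44th of 19938 genes. In the fit across all genes (limma), 2 of 3 members lay past the threshold of an adjusted p of 0.05, where 0.777% of all genes did, 147 genes higher and 8 lower. Nothing is read from this count, since the family was picked with it known. The median over all genes was -0.013. Leaving out any 1 of the 6 arrays kept Gadd45g between 2.99 and 3.33 and Gadd45b between 1.06 and 1.26. No gene on the lists of other blood cell types passed the threshold after Hyper-IL-6.

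Against GFP-PFC rather than unstimulated cells, the same 3 Hyper-IL-6 arrays gave 3.06 (SE 0.14) for Gadd45g, 1.04 (SE 0.12) for Gadd45b and 0.09 (SE 0.11) for Gadd45a. Here 2 of 3 members lay past the threshold beside 0.512% of all genes. Nothing is read from this count either, since the family was picked with the Hyper-IL-6 rise known. Both comparisons share the Hyper-IL-6 arrays and are not separate support for each other.

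Unstimulated and GFP-PFC arrays of a line with consecutive numbers form 12 pairs, which compare cells with and without the emulsion. No group received medium without emulsion, so the emulsion cannot be told apart from the act of adding it. In parental cells, against the same unstimulated arrays, Gadd45a was at -0.30 after GFP-PFC and at -0.20 after Hyper-IL-6. Gadd45a was lower with GFP-PFC in 12 of 12 of these pairs, by 0.028 to 0.45, with a median of -0.18. How many of all genes went the same way in 12 of 12 pairs was not counted. Arrays of the same set of numbers also deviated together, so nothing is read from counts of pairs. The mean difference of Gadd45a over the 4 lines was -0.21 (SE 0.054, 95% interval -0.33 to -0.10), a 1.16-fold lower signal. It did not pass the threshold in limma's test over all genes (adjusted p = 0.122). With the array number pairs as a block, it did (-0.21, adjusted p = 0.0227), while the count of all genes called went from 44 to 151. Without unstimulated parental array 5, the difference was -0.25 (limma, adjusted p = 0.0155), the only call among 24 fits that each left out 1 array, in which the adjusted p reached 0.266. Without a block, 0 of 3 members passed, beside 0.221% of all genes, 37 higher and 7 lower, and 1257 genes had an unadjusted p under 0.05. Of the cell type markers, 1 passed, the IgE receptor chain Ms4a2 of mast cells and basophils, higher by 0.57 (limma, adjusted p = 0.015), and its part in the Gadd45a difference was not tested.

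The size of the Gadd45a difference depended on the array numbers. For parental, CIR-1, CIR-2 and CIR-3 cells in this order, it was -0.45, -0.19, -0.18 and -0.43 in pairs of arrays 1 and 2. In pairs of arrays 3 and 4 it was -0.38, -0.22, -0.13 and -0.38. In pairs of arrays 5 and 6 it was -0.057, -0.028, -0.029 and -0.094. The pair 5 and 6 was the smallest in each of the 4 lines, and parental and CIR-3 cells gave larger differences than CIR-1 and CIR-2 in every set of pairs. What differed between the sets of arrays was not tested, and the labels do not say what the numbers stand for.

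Line by line, parental cells gave a Gadd45a difference of -0.30 after GFP-PFC, CIR-1 of -0.15, CIR-2 of -0.11 and CIR-3 of -0.30 (SE 0.11 for each). The adjusted p in limma lay between 0.999 and 1 in these 4 tests. Leaving out 1 array moved the value between -0.44 and -0.18 in parental cells, between -0.20 and -0.062 in CIR-1, between -0.18 and -0.059 in CIR-2 and between -0.36 and -0.23 in CIR-3. Each called 0 of 3 members and 0% of all genes, although 781, 491, 263 and 427 genes had an unadjusted p under 0.05. The test of whether the difference varied among the lines gave an adjusted p of 1 for each member (limma F-test), and it called 0% of all genes, with 188 at an unadjusted p under 0.05. For Gadd45a, the GFP-PFC difference of CIR-2 lay 0.18 above that of parental cells, with a 95% interval from -0.13 to 0.50, which includes 0.

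Averaged over the lines, Gadd45b and Gadd45g showed smaller differences than Gadd45a after GFP-PFC. In CIR-1, however, Gadd45g was at 0.20 (SE 0.14) and Gadd45a at -0.15 (SE 0.11), neither past the threshold. The mean over the 4 lines was 0.04 for Gadd45b (SE 0.060, 95% interval -0.085 to 0.16), higher in 8 of 12 pairs. It was 0.09 for Gadd45g (SE 0.070, 95% interval -0.054 to 0.24), higher in 9 of 12 pairs. Neither passed the threshold (limma, adjusted p = 0.999 and 0.971). The Gadd45g pairs ranged from -0.13 in CIR-2 arrays 5 and 6 to 0.34 in CIR-1 arrays 5 and 6, and all 3 CIR-1 pairs were higher with GFP-PFC. The Gadd45b pairs ranged from -0.14 to 0.16.

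**Figure D2:**
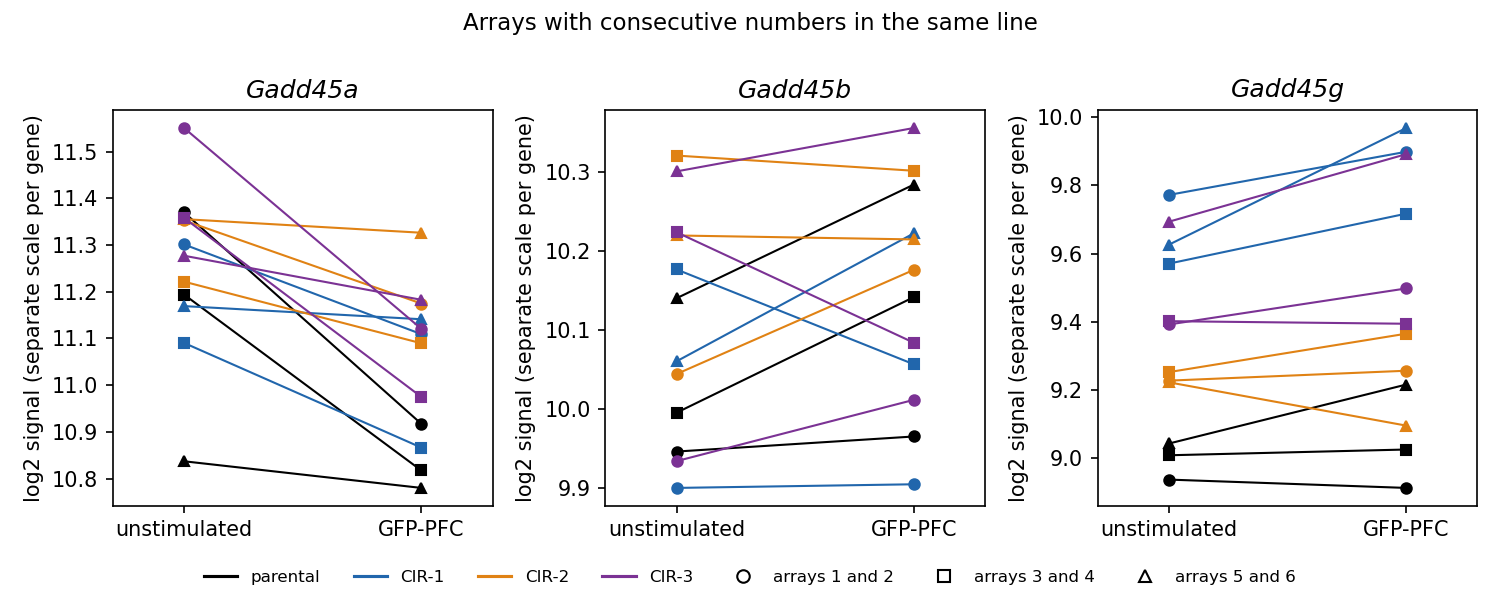
Log2 signal of each member without stimulation and with GFP-PFC, joined for arrays with consecutive numbers in the same line (colour gives the line, shape the array numbers), with a separate vertical scale for each gene. For Gadd45a all 12 lines run downward, least in arrays 5 and 6, whereas 8 of 12 lines for Gadd45b and 9 of 12 for Gadd45g run upward.

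The unstimulated lines were compared to ask how they differed. With 1 line per construct, an effect of a construct cannot be told apart from other differences between the lines. Gadd45g varied among the 4 lines (limma F-test, adjusted p = 0.024), while Gadd45a (0.598) and Gadd45b (0.898) did not pass the threshold. This F-test called 1 of 3 members and 2.82% of all genes. Gadd45g was higher in CIR-1 than in parental cells by 0.66 (SE 0.14, 95% interval 0.37 to 0.95, limma adjusted p = 0.0101), which is 1.58-fold and without overlap of the arrays. That comparison called 1 of 3 members beside 1.73% of all genes. The call was lost without unstimulated CIR-1 array 1 (0.60, limma adjusted p = 0.0628) and without all arrays numbered 1 and 2 (0.57, limma adjusted p = 0.0522).

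In CIR-3, Gadd45g stood 0.50 above parental cells (SE 0.14, 95% interval 0.21 to 0.79), 1.41-fold and without overlap, but short of the threshold (limma, adjusted p = 0.0833). With the array number as a block it passed (adjusted p = 0.0319). In CIR-2, Gadd45g stood 0.24 above (SE 0.14, 95% interval -0.053 to 0.53, limma adjusted p = 0.777), also without overlap of the 3 arrays on each side. How many of all genes had arrays without overlap was not counted, so nothing is read from a lack of overlap in any comparison. Of the members, 0 of 3 passed in CIR-2 and 0 of 3 in CIR-3, beside 1.21% and 1.48% of all genes, with 1610 and 2394 genes at an unadjusted p under 0.05.

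With GFP-PFC the order of the lines was the same. Gadd45g was higher in CIR-1 than in parental cells by 0.81 (SE 0.14, 95% interval 0.52 to 1.10, limma adjusted p = 0.00126), which is 1.75-fold and without overlap, and each of 6 fits without 1 array called it. CIR-1 gave 1 of 3 members called beside 1.64% of all genes. In CIR-3 Gadd45g stood 0.54 above (SE 0.14, limma adjusted p = 0.0591), without overlap, and it passed with the array number as a block (adjusted p = 0.0214). Of 6 fits that left out 1 array, the 1 without GFP-PFC array 4 of CIR-3 called it (0.64, adjusted p = 0.0444), and the others went down to 0.40, with an adjusted p of up to 0.379. In CIR-2 it stood 0.19 above (SE 0.14, 95% interval -0.10 to 0.48, limma adjusted p = 1). Of the members, 0 of 3 passed in CIR-2 and in CIR-3, beside 1.18% and 1.24% of all genes, with 1369 and 1536 genes at an unadjusted p under 0.05. The 2 conditions use different arrays of the same lines.

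Values of cell type markers that moved with the line are given beside this result. The erythroid and megakaryocyte list, whose mean signal was 8.93 to 8.95 in unstimulated parental arrays, was at 9.25 to 9.31 in CIR-1, where 4 of 5 genes were higher at the threshold (Gata1, Klf1, Epor and Itga2b). It was at 9.15 to 9.19 in CIR-2 and at 9.09 to 9.11 in CIR-3, with 1 of 5 higher in each, the erythropoietin receptor gene Epor. The mast cell and basophil list was at 7.86 to 8.39 in parental cells and at 7.45 to 7.58 in CIR-1, 7.39 to 7.57 in CIR-2 and 7.50 to 7.66 in CIR-3, with 1 of 7 genes lower in each. That gene was the IgE receptor chain Fcer1a, at -4.10, -4.06 and -4.09, while the median difference of the list was 0.023, -0.21 and -0.23. Of 8 neutrophil and macrophage genes, Mpo was lower in CIR-1 and CIR-2, and in CIR-3 it was higher and Lyz2 lower. No pro-B, T cell or interleukin-3 receptor gene passed. The part of these genes in the Gadd45g difference was not tested.

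Among the unstimulated CIR lines, Gadd45g was lower in CIR-2 than in CIR-1 by 0.42 on average (difference -0.42, SE 0.14, 95% interval -0.71 to -0.13) without overlap. The test over all genes did not call this difference (limma, adjusted p = 0.454). CIR-3 was at -0.16 against CIR-1 (95% interval -0.45 to 0.13) with overlapping arrays, and at 0.26 against CIR-2 (95% interval -0.029 to 0.55) without overlap. None of the 3 members passed in these comparisons, which called 0.416%, 1.18% and 0.767% of all genes for CIR-2 against CIR-1, CIR-3 against CIR-1 and CIR-3 against CIR-2. The counts at an unadjusted p under 0.05 were 876, 1665 and 1580 genes (limma).

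The Gadd45a mean was above that of parental cells in every CIR line and both conditions, with no call in the fit without a block. Without stimulation, CIR-1 gave a difference of 0.05, CIR-2 of 0.18 and CIR-3 of 0.26 (SE 0.11 for each, limma adjusted p = 0.995, 0.799 and 0.324). The CIR-1 value turned to -0.016 with exon-level means and ran from -0.095 to 0.17 when 1 array was left out, and the CIR-2 value ran from 0.028 to 0.29. The CIR-3 value was 0.38 without unstimulated parental array 1 (limma, adjusted p = 0.0367) and 0.11 without array 5. With GFP-PFC, CIR-1 gave 0.20, CIR-2 0.36 and CIR-3 0.25 (limma, adjusted p = 0.704, 0.147 and 0.504), and the arrays of CIR-2 and of CIR-3 did not overlap those of parental cells. The CIR-2 difference passed with the array number as a block (adjusted p = 0.0367).

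Gadd45b differed least between the lines. Without stimulation it was 0.02, 0.17 and 0.13 above parental cells in CIR-1, CIR-2 and CIR-3 (SE 0.12 each), with 95% intervals reaching from -0.23 to 0.41. With GFP-PFC the differences were -0.07, 0.10 and 0.02, with intervals from -0.32 to 0.35. The arrays overlapped in all 6 comparisons.

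**Figure D3:**
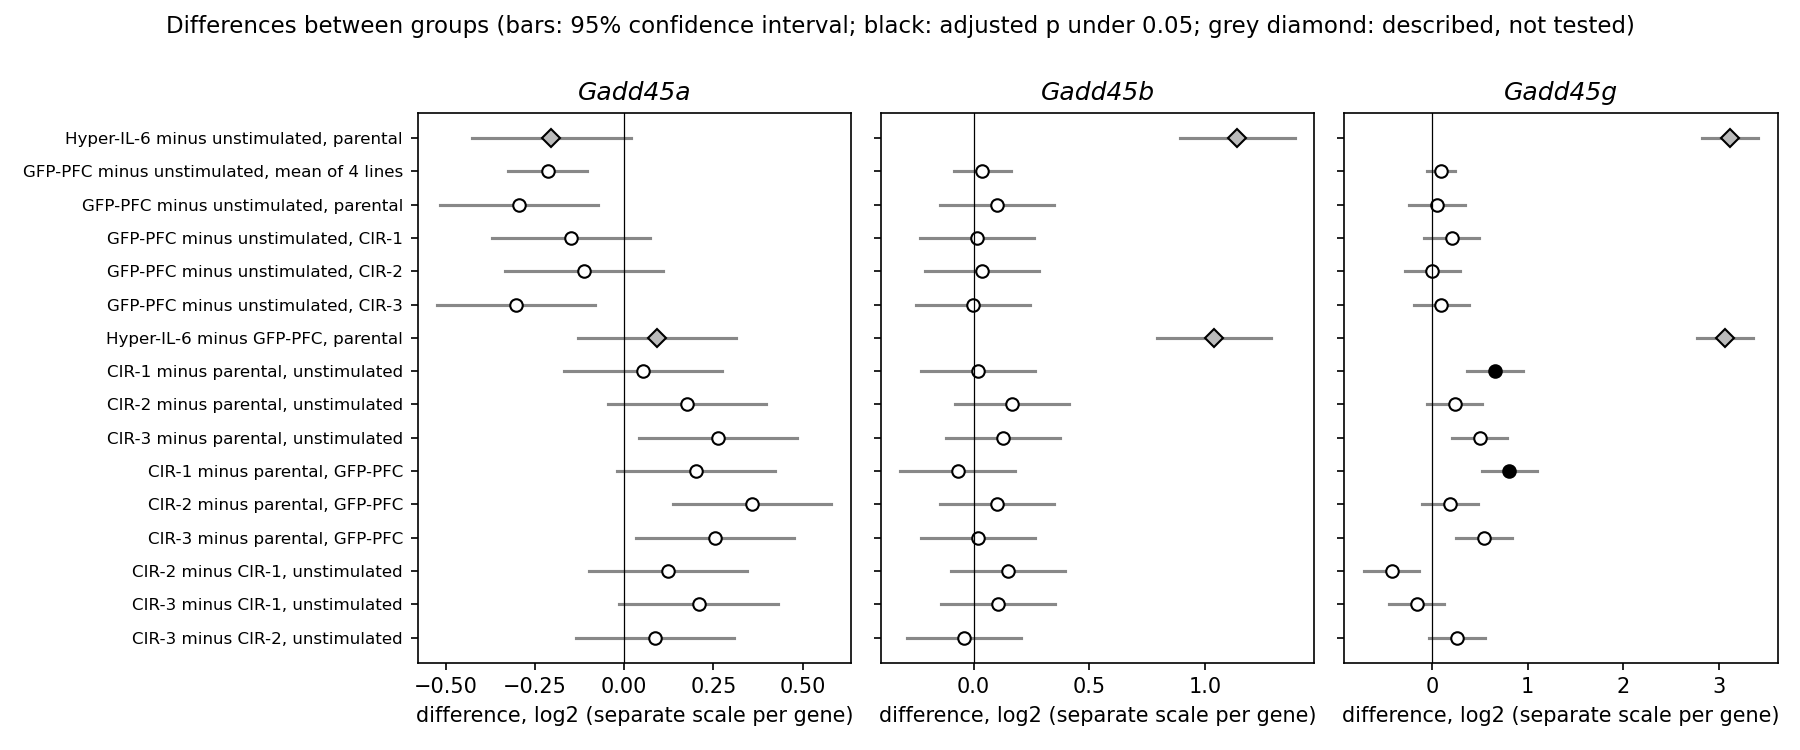
Differences in log2 signal of each member (horizontal axis, separate scale for each gene) in 16 comparisons, with 95% intervals of the linear model; black points have an adjusted p under 0.05, open points do not, and grey diamonds mark the Hyper-IL-6 comparisons, which are described and not tested. The CIR-1 differences of Gadd45g, 0.66 and 0.81, are the black points, and the intervals of Gadd45b in the other comparisons all include 0.

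Unstimulated and GFP-PFC arrays of the same set of numbers deviated together across genes, whereas Hyper-IL-6 arrays did not go with them. Over those 8 groups, Gadd45b lay above its group mean on the array numbered 1 or 2 in 0 of 8, with a mean deviation of -0.14. On arrays 5 or 6 it lay above in 7 of 8 groups, by 0.10 on average. Gadd45a went the other way, with arrays 1 or 2 above the group mean in 7 of 8 groups (mean 0.088) and arrays 3 or 4 above in 1 of 8 (mean -0.072). Gadd45g had no such clear side, with 3, 3 and 5 of 8 groups above the mean. For the members themselves, the Hyper-IL-6 group did not alter this picture. With it, arrays 1 or 2 lay above the group mean in 0 of 9 groups for Gadd45b, 8 of 9 for Gadd45a and 3 of 9 for Gadd45g. For Gadd45b these shifts are of the size of its differences between lines.

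**Figure D4:**
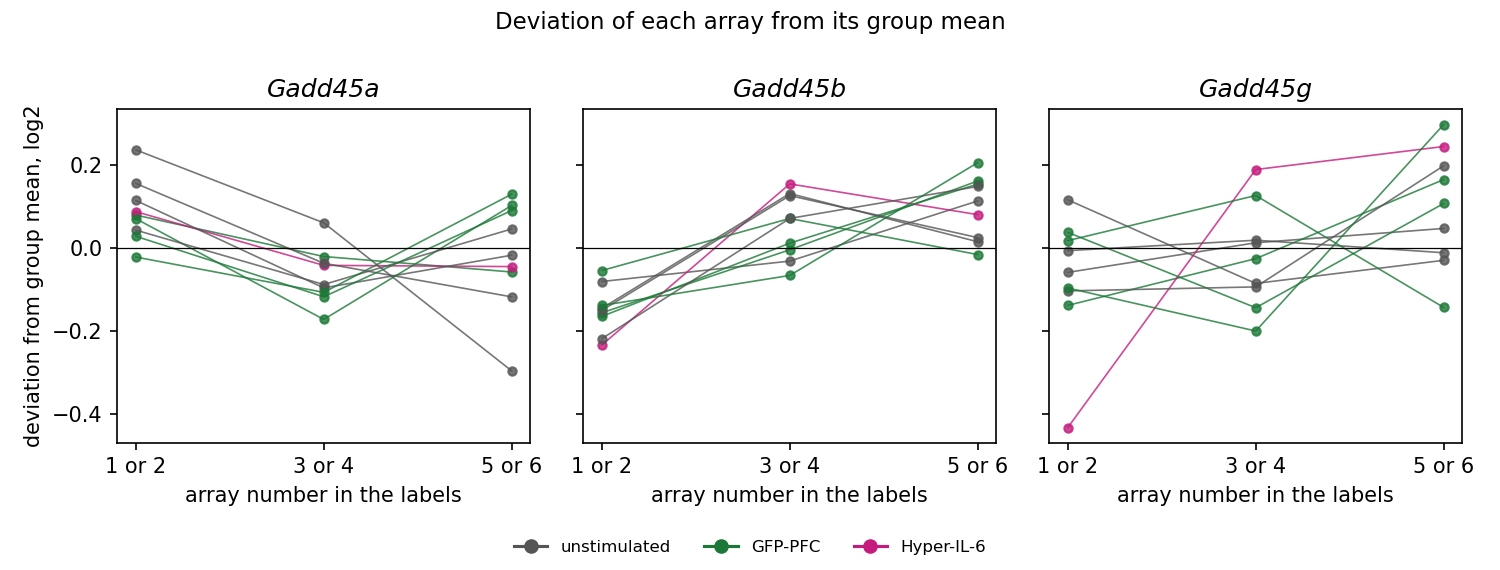
Deviation of each array from its group mean in log2 signal (vertical axis) by the array number in the labels (horizontal axis), with a line joining the 3 arrays of a group, coloured by stimulation. Gadd45b is below 0 on arrays 1 or 2 in all 9 groups, and the Gadd45g array farthest from its group mean is Hyper-IL-6 array 2.

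Each member was also covered by 4 exon-level probe sets from the same hybridisations, which check how evenly a difference runs along the gene and are not a second measurement. After Hyper-IL-6 the 4 probe sets of Gadd45g were higher by 2.54 to 3.43 and those of Gadd45b by 0.87 to 1.22, while those of Gadd45a lay between -0.47 and -0.12. For unstimulated CIR-1 against parental cells, the Gadd45g probe sets differed by 0.64, 0.54, 0.93 and 0.44. Of these, 1 of 4 passed the threshold over all 241576 probe sets (limma, adjusted p = 0.0343), where 0.5% of all did. With GFP-PFC the same 4 differed by 0.84, 0.79, 0.86 and 0.50, and 2 of 4 passed, beside 0.519%. Signs were the same along the gene in both cases. The Gadd45a difference after GFP-PFC was negative in 4 of 4 probe sets (-0.23 to -0.12), of which 0 passed, beside 0.0211% of all probe sets.

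The exon-level probe sets of Gadd45a did not all follow the gene-level value. Over the 27 arrays they correlated with it at 0.97, 0.95, 0.75 and 0.40, whereas those of Gadd45g did so at 0.983 to 0.997 and those of Gadd45b at 0.959 to 0.990. The probe set 10545134 of Gadd45a, with the lowest correlation, was below parental cells in unstimulated CIR-1, CIR-2 and CIR-3 (-0.23, -0.17 and -0.18). This was opposite in sign to the gene-level value, with no value past the threshold (limma, adjusted p = 0.966, 0.984 and 0.878). With GFP-PFC the same probe set was at 0.00093, 0.21 and 0.16, on the side of the gene-level value. Which exon it covers is not analysed here.

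**Figure D5:**
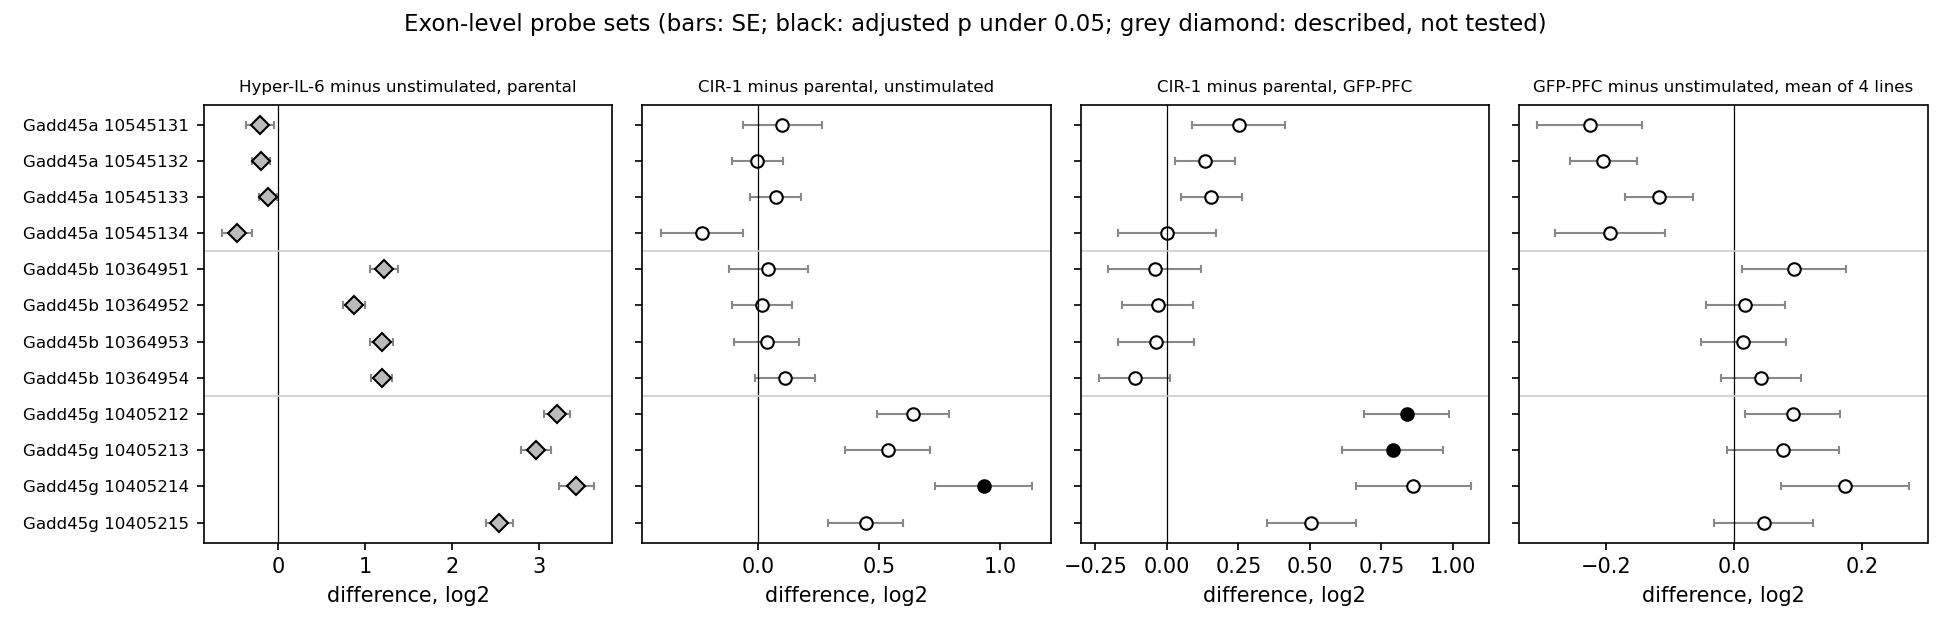
Difference in log2 signal (horizontal axis, a separate scale in each panel) of the 4 exon-level probe sets of each member (rows, named by probe set number) in 4 comparisons, with SE bars; black points have an adjusted p under 0.05, open points do not, and grey diamonds are described and not tested. After Hyper-IL-6 all probe sets of Gadd45g lie between 2.54 and 3.43 and all of Gadd45b between 0.87 and 1.22.

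Over the 9 group means, Gadd45b and Gadd45g followed each other (Pearson r = 0.92), but without the Hyper-IL-6 group r was -0.21 over 8 means. Gadd45a went with neither, at -0.36 with each over 9 means and at 0.29 and 0.14 over 8. The span between the highest and lowest group mean was 3.12 for Gadd45g, the 15th widest of 19938 genes, 1.14 for Gadd45b (174th) and 0.56 for Gadd45a (640th).

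The genes whose group means were most like those of each member were sought among the 210 genes with a span of at least 1, leaving out the member itself. For Gadd45g they were Muc1, a membrane mucin (r = 0.97), Prickle1, a planar polarity protein (0.97), Cdkn2d, an inhibitor of CDK4 and CDK6 (0.96), Zfp36l1, an mRNA decay factor (0.96), and Socs3 (0.96). For Gadd45b they were Gimap5, a lymphocyte GTPase (0.99), the survival kinase Pim1 (0.99), the transcription factor Bhlhe40 (0.98), the nuclear receptor Nr4a2 (0.98) and Lfng, a modifier of Notch (0.98). Their Hyper-IL-6 differences ran from 1.07 for Prickle1 to 3.06 for Socs3. Since likeness to Gadd45b and Gadd45g is set mainly by the Hyper-IL-6 group, the choice of these genes fixed that direction. Without the Hyper-IL-6 group r was between 0.40 and 0.61 for the genes like Gadd45g, and between 0.49 and 0.83 for those like Gadd45b, highest for Gimap5 and Lfng. All points come from the same arrays.

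No gene reached r = 0.9 with Gadd45a. The nearest were Gapt, an adaptor of haematopoietic cells (0.79), the desaturase Scd3 (0.78), Dhtkd1, a mitochondrial dehydrogenase subunit (0.75), Inka1 (0.75) and Il22ra2, a soluble decoy receptor for interleukin-22 (0.74). Their Hyper-IL-6 differences lay between -0.52 for Inka1 and 0.06 for Scd3. Of Gadd45g 24 genes and of Gadd45b 36 genes exceeded 0.9.

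Genes of the wider pathway were taken from lists chosen with earlier results of these data known, so their p-values are not independent support. Counts on the lists are to be set against all genes, of which 0.777% passed after Hyper-IL-6, 147 higher and 8 lower, and 0.221% after GFP-PFC, 37 higher and 7 lower. Of 8 measured Gadd45 partners (of 12 listed), 0 passed the threshold after Hyper-IL-6 and 0 after GFP-PFC (limma). Their median difference was -0.0027 and -0.00056, where the median over all genes was -0.013 and -0.011. The smallest p belonged to Aurka, the mitotic kinase, at -0.17 after Hyper-IL-6 (adjusted p = 0.855) and to Ing1, a chromatin reader, at -0.06 after GFP-PFC (limma, adjusted p = 0.944). The p38 kinase gene Mapk14 was at -0.06 and -0.04.

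Of 17 measured genes of the p38 and JNK cascade (of 18), 0 passed in either comparison, with medians of 0.013 and -0.00058. The transcription factor gene Jun, the substrate of JNK, was at 0.74 after Hyper-IL-6 (SE 0.28, limma adjusted p = 0.475) and at 0.54 after GFP-PFC (SE 0.14, limma adjusted p = 0.15). The kinase gene Mapkapk3, a p38 substrate, was at 0.21 after Hyper-IL-6, and Mapk8, which encodes JNK1, was at 0.09 after GFP-PFC. The Jun differences were thus above 0 in both, although the unstimulated parental arrays enter both comparisons.

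Of 22 measured p53 targets and DNA damage response genes (of 24), 2 rose and 0 fell after Hyper-IL-6, in a comparison where 147 of 155 calls over all genes were upward. These were Btg2, an antiproliferative adaptor of mRNA decay, by 0.90 (SE 0.20, limma adjusted p = 0.0232) and the death receptor Fas by 0.66 (SE 0.15, limma adjusted p = 0.0342). After GFP-PFC 1 rose and 0 fell, the stress kinase Plk3, by 1.03 (SE 0.19, limma adjusted p = 0.015), while Btg2 was at 0.40 (limma, adjusted p = 0.12). The list medians were -0.012 and 0.0079. Gadd45a, the p53 target of the family, was among the values below 0 in both comparisons.

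Of the 6 other growth arrest and DNA damage inducible genes, all measured, 0 passed in either comparison, with medians of -0.12 and 0.048. After Hyper-IL-6, Ppp1r15a (GADD34, a phosphatase subunit of the stress response) was at 0.46 (SE 0.17, limma adjusted p = 0.452) and Ddit3 (CHOP, a factor of endoplasmic reticulum stress) at -0.44 (SE 0.19, limma adjusted p = 0.674). After GFP-PFC, Ddit4 (REDD1, an inhibitor of mTORC1) was at 0.38 (SE 0.12, limma adjusted p = 0.356) and Ddit3 at -0.18 (limma, adjusted p = 0.889). This list thus held differences of both signs.

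Of 14 measured transcription factors known to act on Gadd45 genes (of 16), 3 rose and 0 fell after Hyper-IL-6, where 0.777% of all genes passed and most calls were upward, with a list median of 0.037. Junb, an AP-1 subunit, rose by 1.46 (SE 0.12, limma adjusted p = 7.82e-08), Cebpb, a factor of the interleukin-6 response, by 0.52 (SE 0.087, adjusted p = 0.00156) and Myc by 0.95 (SE 0.21, adjusted p = 0.0255). After GFP-PFC 1 rose and 0 fell, Myc by 0.58 (SE 0.10, limma adjusted p = 0.0111), while Junb was at 0.25 (limma, adjusted p = 0.118), and the list median was -0.015. Against GFP-PFC, Hyper-IL-6 cells were higher for Junb by 1.34 and for Cebpb by 0.39 (limma, adjusted p = 3.49e-07 and 0.0388). Of the lists, the genes Cdkn1a, Ccnb1, Map2k7, Tdg, Bax, Nfkb1 and Trp53 are not analysed here.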

How the data were processed

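RNA of 27 cell samples was measured on Affymetrix mouse arrays. Gene-level and exon-level values were made by the authors in Affymetrix Expression Console, per the labels and the submitters' processing notes. The algorithm, its version, the normalization, the log base and the genome build are not given in the sources used here. The deposited values spanned 2.97 to 14.9, were therefore read as log2 signal, and were not normalized again. The array's annotation listed 1 gene symbol for 21789 of 35556 probe sets, several for 1621 and none for 12146. A model with a mean for each group, on all 27 arrays, was fitted with limma 3.58.1 in R 4.3.3 (files read with data.table, version 1.17.8). Tests were moderated and two-sided, with Benjamini-Hochberg adjustment over 19938 genes and a threshold of 0.05. Every SE is that of the fitted difference. The precision is limited by 3 arrays per group. The procedure was tested on simulated data with noise drawn independently for each gene and array. Deviations shared by arrays of the same set of numbers were not simulated.

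The members and lists were chosen with earlier results of these data known. Named genes are the members, the 5 genes most correlated with each over group means, and list genes past the threshold after Hyper-IL-6 or GFP-PFC or, where fewer than 2 passed, those with the 2 smallest p. The promoter motifs were chosen after the sequences were seen.

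Whether array numbers pair samples was checked by correlating deviations from group means across genes. It was 0.28 to 0.63 in 12 of 12 pairs of consecutive numbers in a line, and over 0.1 in 71 of 72 pairs of the same set in different lines, including all pairs of groups compared here. It was over 0.1 in 0 of 24 pairs with a Hyper-IL-6 array. The numbers thus pair unstimulated and GFP-PFC arrays only. The block had 3 levels for the sets of numbers, shared by all lines, and it also covered the Hyper-IL-6 arrays. The alternatives were this block, quantile normalization, a filter on dim genes, every probe set on its own, exon-level means, only the compared arrays, no arrays numbered 1 and 2, and leaving out each array.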

Additional observations from a re-analysis of the deposited data

How the results depend on the processing

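Over the 54 results of the 3 members, alternatives gave 747 values on the same side of the threshold and 15 on the other, with no called value changing sign. The 54 include the Hyper-IL-6 results, known when the family was chosen, and many values far from the threshold. The count of 747 is therefore no measure of stability. Among the 747, 30 values not called in either fit changed sign. The filter on dim genes, every probe set on its own, exon-level means and only the compared arrays moved no call. The filter and the fit of every probe set kept the members' signals, since each member had 1 probe set and none was dim. They could change a call only through the other genes. With the replicate block, calls were gained by Gadd45a after GFP-PFC over the 4 lines (-0.215), Gadd45a in CIR-2 against parental cells with GFP-PFC (0.359) and Gadd45g in CIR-3 against parental cells unstimulated (0.499) and with GFP-PFC (0.543). The same 4 were called with the block but without the Hyper-IL-6 arrays, a setting chosen after seeing the data (-0.215, 0.359, 0.499 and 0.543; adjusted p = 0.027, 0.0458, 0.00601 and 0.00353). The block changed no other call. Quantile normalization gained Gadd45a after GFP-PFC (-0.232, adjusted p = 0.0438). Without arrays numbered 1 and 2, Gadd45g in unstimulated CIR-1 lost its call (0.573, adjusted p = 0.0522) and in unstimulated CIR-3 gained it (0.522, adjusted p = 0.0268). Leaving out 1 array gave -0.252 to -0.185 for Gadd45a after GFP-PFC, 0.602 to 0.703 for Gadd45g in unstimulated CIR-1, 0.113 to 0.38 for Gadd45a in unstimulated CIR-3, and 0.395 to 0.643 for Gadd45g in CIR-3 with GFP-PFC, each with 1 fit on the other side of the threshold. The cause of these changes was not tested. All adjusted p are from limma. With 3 arrays per group, the SE of a difference between 2 groups was 0.107 for Gadd45a, 0.119 for Gadd45b and 0.14 for Gadd45g. Signal over background is not in the values used here.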
